A study of Homo sapiens with 6 samples.

Results

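The genes that mobilise stored fat and coat its droplets were measured by RNA-seq in HCT116, a human colorectal cancer cell line, with and without knockdown of GDPD5, an enzyme that releases choline from glycerophosphocholine. The 10 genes were taken by name from the deposited table of estimated counts, which has 79302 rows: PNPLA2, ABHD5, G0S2, HILPDA, LIPE, MGLL, PLIN2, PLIN3, PLIN4 and BSCL2. Of these, 9 passed the filter on low counts, the lowest of them LIPE with 15 counts in its shallowest library, and G0S2 did not. The 2 groups were shGDPD5 (HCT116 cells with a short hairpin RNA against GDPD5, genotype KD in the labels, 3 libraries) and shCtrl (HCT116 cells with a control hairpin, 3 libraries). The study describes the cells as a radioresistant derivative that was irradiated some hours before RNA was taken, in both groups. It states the dose and the time, which the labels do not give. It lists more than a single hairpin against GDPD5 and does not say which was sequenced, and the sources do not say if replicate libraries had cultures of their own. The p-values therefore measure only how far libraries spread, which may be technical.

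Triglyceride in a lipid droplet is broken down stepwise. ATGL, the product of PNPLA2, removes the first fatty acid, hormone-sensitive lipase (HSL, from LIPE) removes the next from diglyceride, and monoglyceride lipase (from MGLL) releases the last along with glycerol. ABHD5 is the co-activator of ATGL, while G0S2 and HILPDA are small proteins that inhibit it. Perilipins coat the droplet and limit or permit access of the lipases, with PLIN2 and PLIN3 found in most cells, and seipin, from BSCL2, sits where droplets bud from the endoplasmic reticulum.

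The sequence before the start site is shown for the first lipase and for members that differed by more than the libraries of a group did, so that the places where several known regulators could bind can be read beside the levels. Each is the 250 bases before a start site annotated by RefSeq on GRCh38.p14, printed 5′ to 3′ on the gene's own strand, and capitals mark matches to the motifs searched. They come from chr11:818664-818913 on the plus strand for PNPLA2, and from the minus strand at chr19:42423586-42423835 for LIPE, chr9:19127493-19127742 for PLIN2 and chr11:62709538-62709787 for BSCL2.
PNPLA2: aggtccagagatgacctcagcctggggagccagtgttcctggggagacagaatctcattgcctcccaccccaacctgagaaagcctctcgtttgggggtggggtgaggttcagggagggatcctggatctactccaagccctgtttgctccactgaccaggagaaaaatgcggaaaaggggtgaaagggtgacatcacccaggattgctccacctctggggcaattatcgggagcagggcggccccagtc
LIPE: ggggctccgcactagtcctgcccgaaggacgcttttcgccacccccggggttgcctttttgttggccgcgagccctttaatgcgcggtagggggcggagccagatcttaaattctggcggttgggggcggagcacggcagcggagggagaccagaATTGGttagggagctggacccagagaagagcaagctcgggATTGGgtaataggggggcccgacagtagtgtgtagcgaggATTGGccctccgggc
PLIN2: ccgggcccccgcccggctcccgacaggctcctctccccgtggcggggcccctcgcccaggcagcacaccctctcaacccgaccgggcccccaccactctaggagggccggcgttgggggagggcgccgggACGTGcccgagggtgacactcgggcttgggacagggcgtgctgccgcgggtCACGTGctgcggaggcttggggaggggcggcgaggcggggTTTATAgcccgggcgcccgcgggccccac
BSCL2: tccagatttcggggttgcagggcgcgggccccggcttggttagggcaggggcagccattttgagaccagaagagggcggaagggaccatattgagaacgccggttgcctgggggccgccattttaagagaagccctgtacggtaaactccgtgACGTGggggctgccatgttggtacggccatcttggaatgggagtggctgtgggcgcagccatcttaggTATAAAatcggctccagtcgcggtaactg

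RefSeq gave 13 such windows for 8 of the 10 genes, and none for HILPDA and MGLL. Both strands were searched for ACGTG (the core of the hypoxia response element, found in 18.5% of all 35116 windows), CACGTG (the E-box, which holds ACGTG on both strands, 6.34%), TGTTTAC (a FOXO site, 2.98%), AGGTCA followed by any base N and AGGTCA again (a PPAR element, 0.0171%), TATAAA (the TATA box, 10.7%) and CCAAT (the CCAAT box, 32%). The PLIN2 window held ACGTG at 3 first bases, -120, -69 and -68 from the start. The last 2 are the strands of a single E-box. At -29 the window held TTTATA, which is the letters of the TATA box on the opposite strand. The LIPE window held CCAAT at -95, -55 and -15, and a further LIPE start, upstream of it, had CCAAT at -129. The BSCL2 window held ACGTG at -97 and TATAAA on the gene's own strand at -29, and the other BSCL2 windows held no match. PLIN3 had CCAAT at -77 and PLIN4 at -76. The windows of PNPLA2, ABHD5 and G0S2 held none of these letters. A match is a description of the sequence and not evidence that a factor was bound.

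Library totals were 16715447 to 18510670 estimated counts in shGDPD5 and 17602320 to 18076702 in shCtrl. Replicates differed by more than sampling noise, with a chi-square of 1.65 to 7.28 times its degrees of freedom between pairs, and both highest values were of pairs with shCtrl 1. GDPD5 itself was lower in the knockdown. It had 5.43, 5.55 and 5.19 CPM (counts per 1000000 of the library's TMM-scaled total) in shGDPD5, against 8.33, 11.6 and 9.75 CPM in shCtrl, or 54.5% of the shCtrl mean, with a log2 fold change of -0.88 ± 0.14 (SE) and an adjusted p of 0.000116 by edgeR's quasi-likelihood test. Mitochondrial mRNA took 10.05 to 10.7% of counts in shGDPD5 and 8.99 to 9.34% in shCtrl, and its part in the results was not tested. Of 10 colorectal epithelial markers 7 were tested, of which 1 was higher and 6 lower in shGDPD5, and their summed level was 2529 to 2637 CPM in shGDPD5 and 3174 to 3613 CPM in shCtrl. CDX1 was at 0, LGR5 had at most 2 and VIL1 at most 10 counts. Of 10 adipocyte markers 1 was tested, GPD1, a glycerol phosphate dehydrogenase, which made up most of their sum at 1.31 ± 0.13 CPM in shGDPD5 and 1.95 ± 0.41 CPM in shCtrl (SD, n = 3 each) and was lower (log2 fold change -0.58, adjusted p 0.0498 by edgeR). LEP, CIDEA, LPL and ADRB3 were at 0 and ADIPOQ had at most 1 count, with all 10 summing to 1.58 to 1.93 CPM in shGDPD5 and 1.92 to 2.71 CPM in shCtrl. Fibroblast markers (8 genes, 3 at 0) summed to 20.8 to 24.4 CPM in shGDPD5 and 19.2 to 21.9 CPM in shCtrl. Immune and endothelial markers (10 genes, with CD3E and CDH5 at 0) summed to 3.55 to 4.09 CPM in shGDPD5 and 7.98 to 12.3 CPM in shCtrl, mostly CD68. The part of these markers in the results was not tested.

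By edgeR, knockdown libraries held more mRNA of the first and second lipase of the chain and much less of the last. The call of the first, PNPLA2, depended on the test chosen, and the second, LIPE, had only 15 to 68 counts per library. By edgeR's test, at an adjusted p under 0.05 over the 16755 genes tested, 4 of the 9 tested members were higher in shGDPD5 (PNPLA2, LIPE, PLIN3 and BSCL2), 2 were lower (MGLL and PLIN2) and 3 did not pass (ABHD5, HILPDA and PLIN4). Of all tested genes 29.7% were called higher and 30.1% lower, 59.7% in all, so that calls were common throughout the transcriptome, and the members' 6 calls among 9 are to be read against that share. The study states 2 limits on the size of a change beside a p under 0.05 before adjustment, which were applied here to the p of edgeR. With a change of 1 or more on the log2 scale in either direction, LIPE and BSCL2 were higher and MGLL lower, against a background of 5.38% higher and 6.6% lower. BSCL2 passed this limit by its own row. Summed with HNRNPUL2-BSCL2, a read-through gene that shares its exons, its log2 fold change was 0.84, below the limit. With a fold over 1.5 or under 0.5, PNPLA2 was higher as well, at 1.51-fold and so just past the limit, against a background of 13.6% higher and 6.6% lower. PNPLA2 fell below the 1.5-fold limit without shGDPD5 1, without shGDPD5 3 and without shCtrl 1 (log2 fold change 0.50, 0.57 and 0.47). The median log2 fold change of the 9 members was 0.15, in a range of -2.21 to 1.76, and that of all tested genes was 0.01. In bulk RNA a change in the share of cells that transcribe a gene and a change in RNA per cell cannot be told apart.

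**Figure D1:**
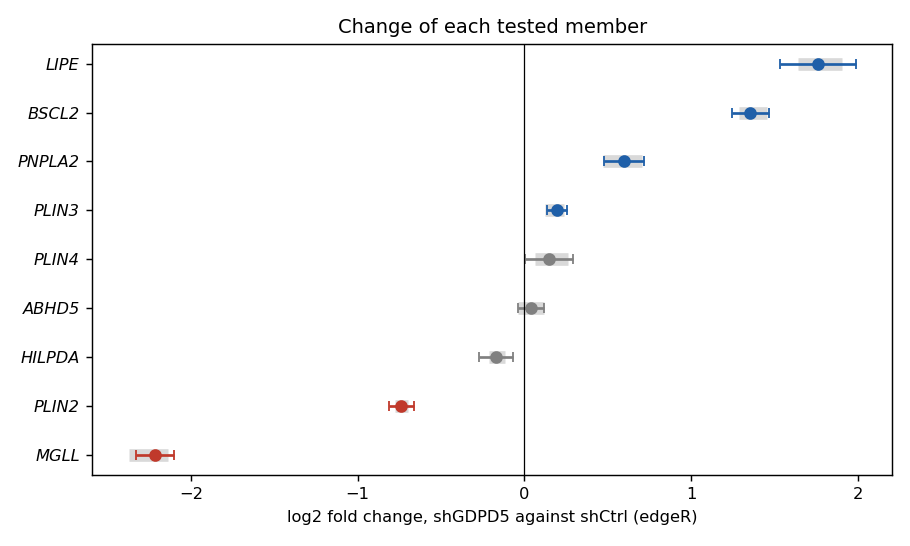
Log2 fold change of each tested member, shGDPD5 against shCtrl, by edgeR (points; bars, 1 SE; grey bands, range when each library was left out in turn; n = 3 libraries per group). Blue points passed an adjusted p of 0.05 as higher, red as lower and grey points did not pass. LIPE stands highest at 1.76 and MGLL lowest at -2.21.

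PNPLA2 (ENSG00000177666, chr11:818902-825573, plus strand) encodes ATGL, the rate-limiting triglyceride lipase. It had 46.5, 34.5 and 42.7 CPM in shGDPD5, against 22.5, 28.3 and 30.7 CPM in shCtrl. Each knockdown library lay above each control library, although shGDPD5 2 exceeded shCtrl 3 by less than the libraries of either group differed among themselves. The means were 41.2 ± 6.12 CPM in shGDPD5 and 27.2 ± 4.21 CPM in shCtrl (SD, n = 3 each), a 1.51-fold difference with a log2 fold change of 0.60 ± 0.12 (SE) and an adjusted p of 0.000835 by edgeR. A test per gene on log2(CPM + 1), which shares no spread between genes, gave an adjusted p of 0.0596. The call at an adjusted p under 0.05 therefore depended on the test. The study states this kind of test with a p before adjustment, and that limit was not applied to it here. An antisense gene, AP006621.1, shares 401 bases (10.4%) of its exons and had 4 to 6 counts per library, too few to test.

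LIPE (chr19:42401507-42427426, minus strand) encodes HSL, which acts mainly on diglyceride. Its row had 68, 51 and 66 counts in shGDPD5, against 19, 15 and 19 in shCtrl, or 3.97, 2.72 and 3.72 CPM in shGDPD5 and 1.11, 0.847 and 1.10 CPM in shCtrl. Every knockdown library exceeded every control library by more than 2-fold, at a level low enough for counting error to matter. The log2 fold change was 1.76 ± 0.23 (SE), a 3.4-fold difference, with an adjusted p of 2.54e-05 by edgeR. LIPE-AS1, an antisense RNA, shares 500 bases (9.6%) of the exons and moved the other way, with 2.57, 2.77 and 3.33 CPM in shGDPD5 and 5.88, 4.80 and 4.38 CPM in shCtrl (log2 fold change -0.79, adjusted p 0.00137). Since no source says whether counting used strand, reads from the shared bases cannot be told apart.

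MGLL (chr3:127689062-128052190, minus strand) encodes monoglyceride lipase, which also degrades the endocannabinoid 2-arachidonoylglycerol. It had 6.14, 4.59 and 4.46 CPM in shGDPD5, against 22.3, 23.8 and 24.2 CPM in shCtrl, from 79 to 105 counts in shGDPD5 and 383 to 422 counts in shCtrl. The groups were far apart. The knockdown mean of 5.06 ± 0.93 CPM was 21.6% of the control mean of 23.4 ± 0.99 CPM (SD, n = 3 each). Its log2 fold change of -2.21 ± 0.12 (SE) was the furthest from 0 among the 9 tested members, with an adjusted p of 8.02e-09 by edgeR, and it ranked 362 by p among all 16755 tested genes. No annotated gene shared its exons.

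**Figure D2:**
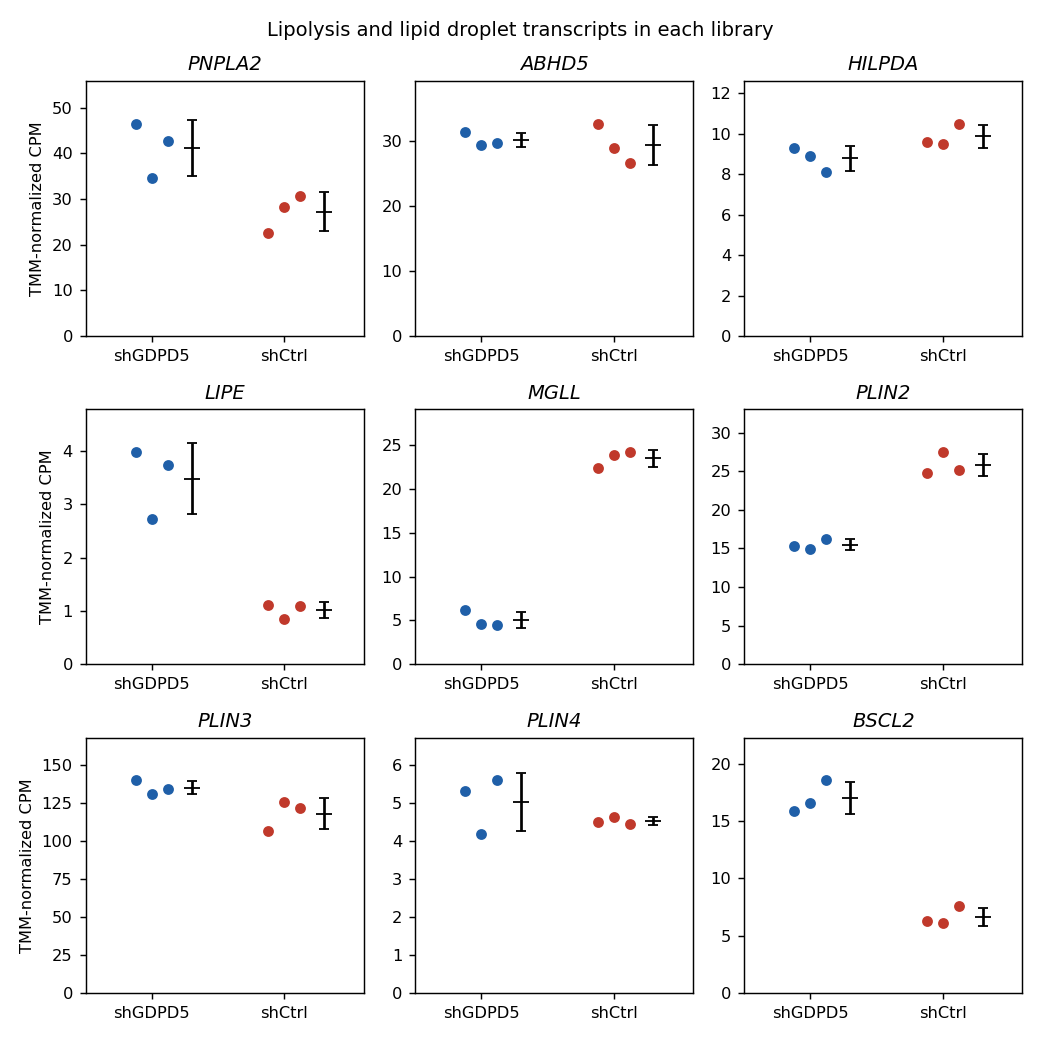
Level of each tested member in every library, in TMM-normalized CPM (y axes start at 0 and differ between panels). Points are libraries, shGDPD5 in blue and shCtrl in red, with the mean and 1 SD beside them (n = 3 each). MGLL and PLIN2 are lower and LIPE and BSCL2 higher in every shGDPD5 library than in any shCtrl library, while the groups of ABHD5 and PLIN4 overlap.

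The partners of ATGL did not pass the test. ABHD5 (chr3:43690108-43734371, plus strand), its co-activator, had 31.4, 29.5 and 29.8 CPM in shGDPD5, against 32.7, 28.9 and 26.6 CPM in shCtrl. The groups overlapped, with a log2 fold change of 0.04 ± 0.08 (SE) and an adjusted p of 0.697 by edgeR. ANO10, on the opposite strand, shares 170 bases (2.25%) of its exons and had a log2 fold change of -0.37. HILPDA (chr7:128455849-128458418, plus strand), an ATGL inhibitor induced by low oxygen, had 9.29, 8.91 and 8.12 CPM in shGDPD5, against 9.61, 9.48 and 10.5 CPM in shCtrl. Each knockdown value was below each control value, but the gap of 9.29 to 9.48 CPM was small, and the log2 fold change of -0.17 ± 0.10 (SE) did not pass (adjusted p 0.179). Groups that do not overlap were common: 3 of the 9 members were so separated as lower and 4 as higher in shGDPD5, against 32.4% and 32.6% of all tested genes. AC010655.2 and AC010655.4 lie on the same strand as HILPDA and share 8.99% and 8.45% of its exon bases. The first of them averaged 2.73 ± 0.52 CPM in shGDPD5 and 1.42 ± 0.40 CPM in shCtrl (log2 fold change 0.95, adjusted p 0.00456), opposite in sign to HILPDA.

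G0S2 (chr1:209675420-209676388, plus strand), the other ATGL inhibitor, was listed at 0 counts in all 6 libraries. Taking 3 counts as the limit that a count of 0 allows, its level was at most 0.18, 0.162 and 0.173 CPM of the library total in shGDPD5 and 0.17, 0.166 and 0.169 in shCtrl, for counting error only. No fold change can be given. SPART, which most cell types transcribe, was also listed at 0 in every library, so that a listed 0 in this table of estimated counts may not mean that a transcript was missing from the cells.

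Ratios within a library do not depend on how libraries were scaled. The log2 ratio of PNPLA2 to ABHD5 was 0.57, 0.23 and 0.52 in shGDPD5, against -0.54, -0.03 and 0.21 in shCtrl. The lowest knockdown and the highest control value differed by only 0.02, so the groups all but touched. The log2 ratio of PNPLA2 to HILPDA was 2.32, 1.95 and 2.39 in shGDPD5, against 1.23, 1.58 and 1.55 in shCtrl, with no overlap. Both ratios are given as a description, and no test was run on them. The smallest p that an exact two-sided permutation test of 3 against 3 allows is 0.1. Further ratios were picked after the values of the members were seen. PNPLA2 over MGLL averaged 3.03 ± 0.20 in shGDPD5 and 0.20 ± 0.17 in shCtrl (log2, SD, n = 3 each), LIPE over MGLL averaged -0.55 ± 0.26 in shGDPD5 and -4.54 ± 0.25 in shCtrl, and PNPLA2 over PLIN2 averaged 1.40 ± 0.20 in shGDPD5 and 0.07 ± 0.21 in shCtrl.

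**Figure D3:**
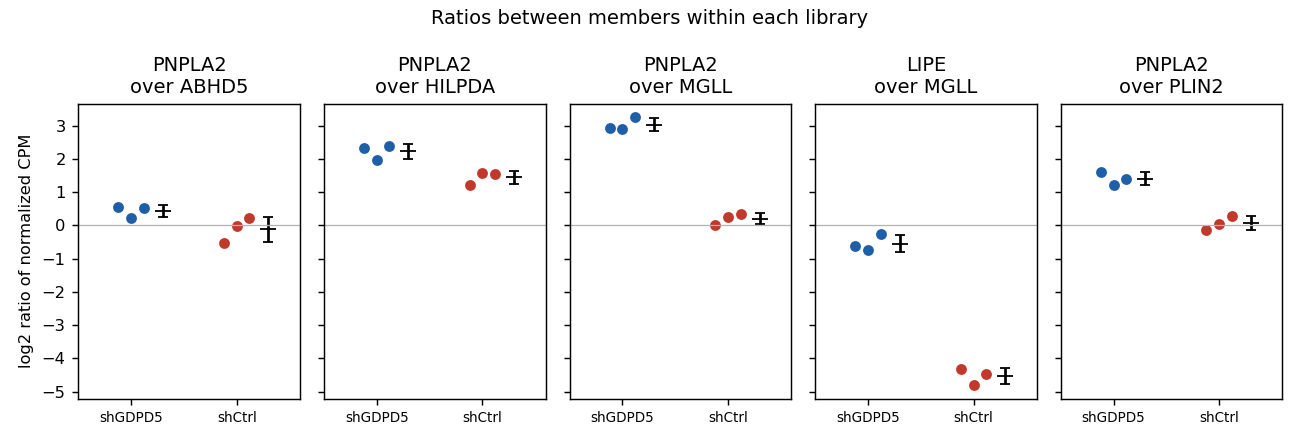
Log2 ratio of normalized CPM between pairs of members in each library (points; mean and 1 SD beside them; n = 3 each; shGDPD5 blue, shCtrl red). The ratios to MGLL are set furthest apart, with a difference of 3.99 for LIPE over MGLL, and the ratio of PNPLA2 to ABHD5 is the closest, with a difference of 0.56. The 3 ratios on the right were picked after the values were seen.

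Among the droplet coats, the perilipins differed in direction. PLIN2 (chr9:19108375-19149290, minus strand), the perilipin whose protein accumulates with stored lipid, had 15.3, 14.9 and 16.2 CPM in shGDPD5, against 24.8, 27.5 and 25.1 CPM in shCtrl. The knockdown mean was 60% of the control mean, the libraries within a group lay close together, and the log2 fold change was -0.74 ± 0.08 (SE) with an adjusted p of 3.77e-06 by edgeR. PLIN3 (chr19:4838341-4867768, minus strand), which moves from the cytosol to new droplets, had 139.7, 131.1 and 134.4 CPM in shGDPD5, against 106.7, 125.5 and 121.6 CPM in shCtrl. The groups did not overlap but the difference was small, a log2 fold change of 0.20 ± 0.06 (SE) with an adjusted p of 0.0151. It no longer passed without shGDPD5 1 (0.17, adjusted p 0.0721) or in the test per gene (adjusted p 0.1), so the PLIN3 call rested on that library and on the test chosen. Without shCtrl 1, its lowest control, the log2 fold change was 0.12 (adjusted p 0.0129). PLIN4 (chr19:4502180-4518465, minus strand), a perilipin of adipocytes and muscle, had 5.32, 4.16 and 5.58 CPM in shGDPD5, against 4.48, 4.63 and 4.44 CPM in shCtrl, which overlapped (log2 fold change 0.15 ± 0.15 SE, adjusted p 0.397). PLIN2 shared exons with no annotated gene. AC027319.1, opposite PLIN3 over 502 bases (17.8% of its exons), was at 0, and HDGFL2 shared 32 bases with PLIN4.

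Set against their lengths, the 3 perilipins among the members could be compared with each other. Counts per kilobase of merged exons were scaled to an equal sum in every library over the rows with a GENCODE v29 length (98.7 to 98.8% of counts), which is the TPM scale. They put PLIN3 at 92.6 ± 0.39% of the summed level of the 3 perilipins in shGDPD5 and 87.9 ± 0.64% in shCtrl (SD, n = 3 each). The sum leaves out PLIN5, which is not a member and averaged 2.45 CPM in shGDPD5 and 3.96 CPM in shCtrl. PLIN2 made up 5.63, 5.84 and 6.16% in shGDPD5, against 11.2, 10.7 and 10.1% in shCtrl, so that its share was lower in every knockdown library. PLIN4 made up 1.49 ± 0.19% in shGDPD5 and 1.46 ± 0.11% in shCtrl. With the length of the longest transcript in place of merged exons the PLIN2 share was 11.8 ± 0.51% in shGDPD5 and 20.4 ± 0.93% in shCtrl, a higher level in both groups with the same order.

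BSCL2 (chr11:62690275-62709845, minus strand) encodes seipin, which shapes the size and number of droplets. Its own row had 15.9, 16.6 and 18.55 CPM in shGDPD5, against 6.29, 6.10 and 7.55 CPM in shCtrl. The values of the groups were far apart, 2.56-fold, with a log2 fold change of 1.36 ± 0.11 (SE) and an adjusted p of 4.52e-07 by edgeR. The read-through gene HNRNPUL2-BSCL2 holds 1610 bases (40.6%) of its exons on the same strand and had more counts, at 77.5, 63.1 and 71.3 CPM in shGDPD5 and 38.6, 47.3 and 40.6 CPM in shCtrl (log2 fold change 0.74, adjusted p 1.15e-05). How counts were split between these rows was set by the authors' counting. The BSCL2 row took 17.02, 20.8 and 20.7% of the counts of both in shGDPD5 and 14.01, 11.4 and 15.7% in shCtrl. With the 2 rows summed the log2 fold change was 0.84 ± 0.08 (SE, adjusted p 1.01e-06), the same direction at a smaller size and below the study's log2 limit of 1. HNRNPUL2, the upstream gene, averaged 185.6 ± 3.24 CPM in shGDPD5 and 216.1 ± 2.11 CPM in shCtrl (log2 fold change -0.22, adjusted p 0.000644), opposite in direction to the read-through row. GNG3, opposite BSCL2 over 447 bases (11.3%), was higher, with a log2 fold change of 1.08 and an adjusted p of 0.00277.

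**Figure D4:**
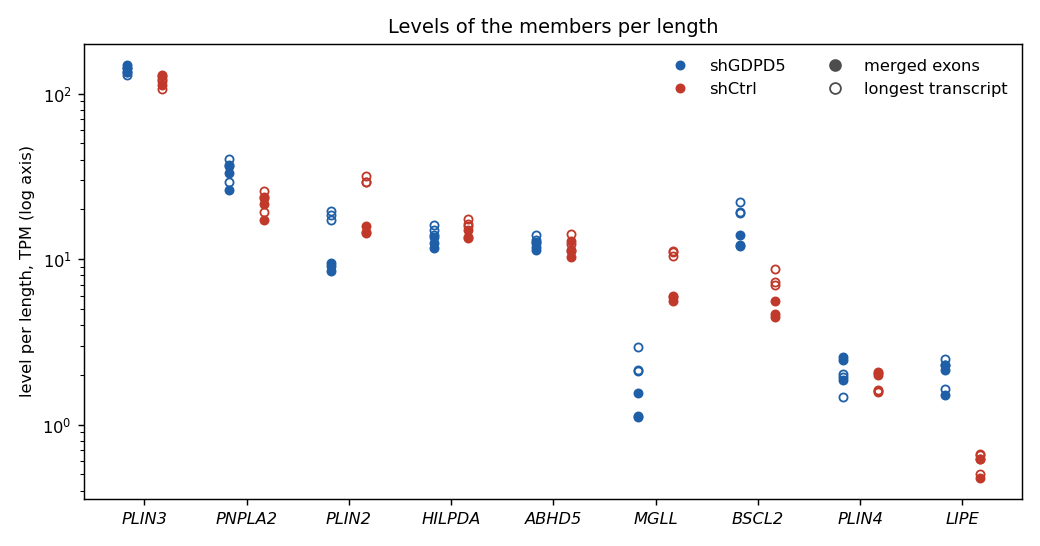
Level of each tested member per length in every library, in TPM on a log axis (filled points, length of merged exons; open points, length of the longest annotated transcript; shGDPD5 blue and left of shCtrl red). PLIN3 is highest in both groups by either length, and MGLL stands below PLIN4 in shGDPD5 and above it in shCtrl by merged exons. G0S2, at 0, is not drawn.

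The order of the members per length differed between the groups. BSCL2 was placed by its own row, which held a mean of 19.5% of the counts of that row and its read-through row in shGDPD5. In shCtrl it held 13.7%. Its place, and those of genes ranked against it, therefore depend on how counts were split, and the order with both rows summed was not computed. In both groups PLIN3 came first by merged exons, at 142.5 ± 7.32 in shGDPD5 and 123.1 ± 9.66 in shCtrl (TPM, SD, n = 3 each), and PNPLA2 came next, at 31.9 ± 5.35 in shGDPD5 and 20.8 ± 3.15 in shCtrl. Below them in shGDPD5 stood BSCL2 at 12.7 ± 1.08, HILPDA at 12.6 ± 0.89 and ABHD5 at 11.9 ± 0.62, whose libraries overlapped, so that their order is not set. PLIN2 followed at 9.04 ± 0.53, and PLIN4 at 2.30 ± 0.38, LIPE at 1.98 ± 0.41 and MGLL at 1.27 ± 0.26 closed the order, each overlapping its neighbour. In shCtrl, PLIN2 at 14.9 ± 0.75 and HILPDA at 14 ± 0.83 overlapped in the places after PNPLA2, ABHD5 stood at 11.4 ± 1.25, MGLL at 5.81 ± 0.22 and BSCL2 at 4.93 ± 0.60 overlapped, and PLIN4 at 2.04 ± 0.03 and LIPE at 0.572 ± 0.08 came last. MGLL thus stood last of the 9 in shGDPD5 and above BSCL2, PLIN4 and LIPE in shCtrl. The order among the middle genes depended on the length used: by the longest transcript, PLIN2 at 30.0 stood above PNPLA2 at 22.9 in shCtrl, and MGLL at 2.40 stood above LIPE at 2.14 and PLIN4 at 1.82 in shGDPD5.

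In the shGDPD5 group, some libraries stood high or low for many members at once. There, shGDPD5 1 was highest for 6 of the 9 members and shGDPD5 2 lowest for 6 and highest for 0. The control group was more even, with shCtrl 1, shCtrl 2 and shCtrl 3 lowest for 4, 3 and 2 members. The 3 genes whose log2 CPM, centred over the 6 libraries, lay closest to that of PNPLA2 among 11111 genes with a mean of at least 5 CPM were H2AX (Euclidean distance 0.094), SLX1A (0.123) and ADISSP (0.135). H2AX, a histone variant phosphorylated at DNA breaks, had 42.5, 31.6 and 40.0 CPM in shGDPD5, against 21.7, 26.3 and 27.1 CPM in shCtrl. Like PNPLA2 it was lowest in shGDPD5 2 and in shCtrl 1 within the groups. Since H2AX was picked for its closeness to PNPLA2 in these same libraries, that likeness adds nothing further. FASN, the fatty acid synthase, had 360.7, 271.5 and 353.8 CPM in shGDPD5, against 209.2, 232.1 and 249.5 CPM in shCtrl, with the same libraries lowest (log2 fold change 0.51 ± 0.10 SE, adjusted p 0.000501 by edgeR). These likenesses describe 6 libraries only.

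Genes around the chain moved in both directions. The background for each count that follows from all libraries is 29.7% higher and 30.1% lower by edgeR at an adjusted p under 0.05, and a median log2 fold change of 0.01. Counts from other settings have other backgrounds. Over all genes edgeR called 4971 higher and 5035 lower, DESeq2 4253 and 4458, and the test per gene 4127 and 4249. With each library left out in turn, 4410 to 5091 were higher and 4604 to 5266 lower. Of 17 other droplet proteins 11 were tested, of which 4 were higher, 4 lower and 3 did not pass, with a median of 0.04. METTL7A, a droplet-associated methyltransferase, averaged 5.34 ± 0.82 CPM in shGDPD5 and 0.843 ± 0.18 CPM in shCtrl, with a log2 fold change of 2.65 (adjusted p 4.52e-07). METTL7B, HSD17B11 and AUP1 were higher by 0.69, 0.56 and 0.52 on the log2 scale. The lower ones were PLIN5 (-0.69), the perilipin that ties droplets to mitochondria, FITM2 (-0.25), LDAF1 (-0.22), the partner of seipin, and FAF2 (-0.21), which were named after their values were seen because they are so few. The count of lower genes was 2 without shGDPD5 1, without shCtrl 3, with DESeq2 and with the test per gene. PLIN1, CIDEA, CIDEB, CIDEC, FITM1 and SPART had at most 8 counts in a library and were not tested.

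Of 15 other lipases and carriers of fatty acids or glycerol 11 were tested, of which 4 were higher, 4 lower and 3 did not pass (median -0.07). CES2, a carboxylesterase, averaged 28.9 ± 2.64 CPM in shGDPD5 and 46.9 ± 2.61 CPM in shCtrl (log2 fold change -0.70, adjusted p 4.79e-06), and PNPLA4, a relative of ATGL, was lower by nearly as much at -0.70 (adjusted p 0.000103). DDHD2, a triglyceride lipase of neurons, was higher by 0.59, and FABP5, a fatty acid carrier, by 0.38. AQP3 (0.81), DDHD1 (0.21), LIPA (-0.25) and ABHD6 (-0.24) made up the other calls and were named after their values were seen. PNPLA1, CES1, FABP4 and AQP7 were not tested.

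The hormonal control of lipolysis runs through receptors, G proteins, adenylyl cyclase and protein kinase A, which phosphorylates HSL and perilipin, with insulin and AMPK signalling acting against or beside it. Of 27 genes 24 were tested, of which 9 were higher, 8 lower and 7 did not pass (median 0.10). ADCY7, an adenylyl cyclase, averaged 8.49 ± 0.81 CPM in shGDPD5 and 31.4 ± 3.33 CPM in shCtrl, with a log2 fold change of -1.89 (adjusted p 1.18e-08). ADCY6, another cyclase, was higher by 0.67 and GNAI1, an inhibitory G protein subunit, by 0.75, at 209.3 ± 3.54 CPM in shGDPD5 and 124.3 ± 10.5 CPM in shCtrl. PRKAA1, a catalytic subunit of AMPK, was lower at -0.48 (adjusted p 7.94e-06). The test per gene called 5 higher in place of 9, and over all genes 4127 in place of 4971. ADRB3, PTGER3 and NPR1, receptors of the pathway, had at most 2 counts and were not tested. Other receptors of the list were tested, and they are named after their values were seen. By edgeR, ADORA1 was higher (1.24, adjusted p 0.00198, 10 to 46 counts) and ADRB1 lower (-1.31, adjusted p 0.00335, 6 to 20 counts). INSR, the insulin receptor, did not pass (-0.07, adjusted p 0.277).

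Triglyceride synthesis refills the droplet from glycerol phosphate and acyl-CoA. Of 18 genes 14 were tested, of which 6 were higher, 4 lower and 4 did not pass (median 0.06). The lipins, which make diglyceride from phosphatidate, differed among themselves: LPIN1 averaged 22.2 ± 0.66 CPM in shGDPD5 and 13.9 ± 1.28 CPM in shCtrl (log2 fold change 0.68, adjusted p 2.03e-05), and LPIN2 averaged 21.4 ± 1.57 CPM in shGDPD5 and 38.4 ± 1.97 CPM in shCtrl (-0.85, adjusted p 6.9e-07). AGPAT3 and AGPAT4, acyltransferases of lysophosphatidate, were lower at -0.43 and -0.63. The other calls were named after their values were seen. DGAT2, which makes triglyceride from diglyceride, was lower at -0.87 (adjusted p 0.00047), while DGAT1, which catalyses the same step, was higher at 0.35 (adjusted p 0.00477). Further higher genes were LPIN3 (0.38), AGPAT5 (0.35), AGPAT1 (0.31) and GPAT4 (0.16), so that lipins, AGPAT and DGAT enzymes each had members on both sides. The test per gene called 3 higher in place of 6, and over all genes 4127 in place of 4971. MOGAT1, MOGAT2, MOGAT3 and SOAT2 were not tested.

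**Figure D5:**
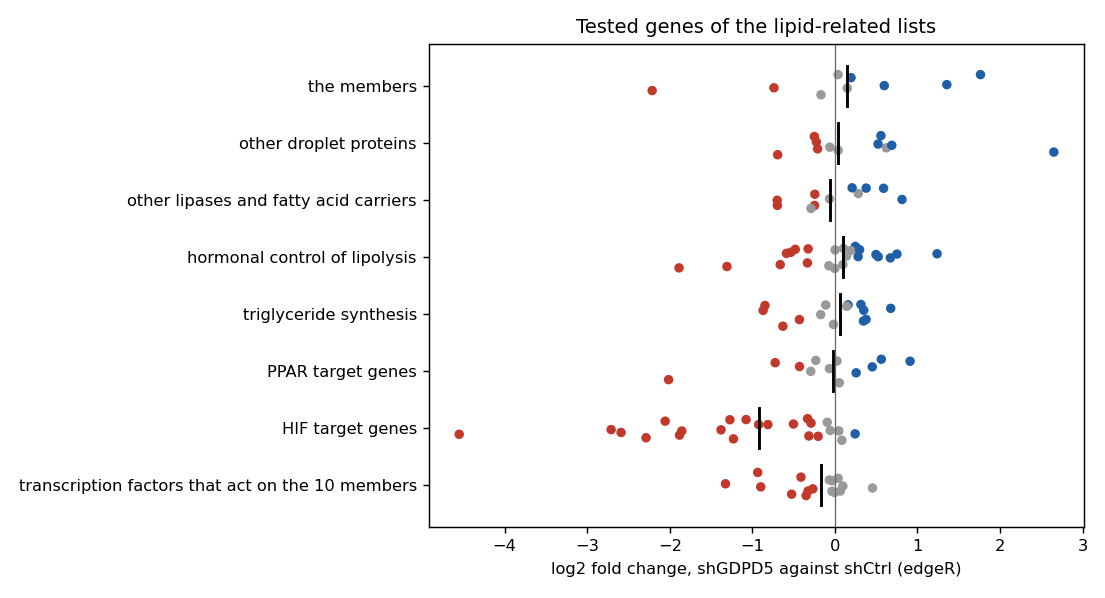
Log2 fold change, shGDPD5 against shCtrl by edgeR, of every tested gene of the members and of 7 related lists (rows; points are genes, spread vertically for legibility; blue passed an adjusted p of 0.05 as higher, red as lower, grey did not pass; black lines are medians). The HIF target genes stand lowest with a median of -0.92, and the members spread from -2.21 to 1.76 around a median of 0.15.

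PLIN2, HILPDA and PNPLA2 are known targets of transcription factors that sense fatty acids, oxygen or nutrients, so the other targets and the factors themselves were described. Of 18 PPAR target genes outside the members 12 were tested, of which 4 were higher, 3 lower and 5 did not pass (median -0.02). ANGPTL4, an inhibitor of lipoprotein lipase that also responds to low oxygen, averaged 3.03 ± 0.59 CPM in shGDPD5 and 12.2 ± 1.22 CPM in shCtrl (log2 fold change -2.01, adjusted p 1.57e-07). ACAA2, CPT1A and HADHB, of fatty acid oxidation, stood at 0.91, 0.56 and -0.43. All 23 HIF target genes outside the members were tested, and 18 were lower, 1 higher and 4 did not pass (median -0.92). NDRG1 averaged 79.7 ± 3.74 CPM in shGDPD5 and 480.1 ± 14.5 CPM in shCtrl (log2 fold change -2.59), and DDIT4, VEGFA and P4HA1 stood at -2.71, -2.06 and -2.29 (largest adjusted p of the 4, 4.17e-11). The higher one was ENO1, at 0.24 (adjusted p 0.000973), named after its values were seen, and without shCtrl 1 or with the test per gene 2 were higher. The 4 that did not pass were LDHA (-0.06), PGK1 (0.08), PFKFB3 (0.05) and PFKFB4 (-0.09), also named after their values were seen. PLIN2 was lower in the same comparison and HILPDA did not pass.

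Of 18 transcription factors known to act on the members 16 were tested, of which 8 were lower, 8 did not pass and 0 were higher by edgeR (median -0.17). DESeq2 and limma-voom also called 0 higher. TFEB was the 1 factor higher at an unadjusted p under 0.05 (0.46, adjusted p 0.0719), and the count of higher factors was 1 with no filter, without shCtrl 1 and without shCtrl 2. PPARG, which induces PNPLA2, LIPE and several perilipins in adipocytes, averaged 23.4 ± 1.43 CPM in shGDPD5 and 58.7 ± 0.36 CPM in shCtrl (log2 fold change -1.33, adjusted p 2.92e-09). EPAS1, which encodes HIF-2α, averaged 51.9 ± 0.88 CPM in shGDPD5 and 99.3 ± 3.42 CPM in shCtrl (-0.94, adjusted p 1.23e-08), while HIF1A did not pass (-0.0045, adjusted p 0.948). EGR1, which represses PNPLA2 in adipocytes of mice, was lower at -0.90 (adjusted p 5.52e-09), and FOXO3, a FOXO factor, at -0.35 (adjusted p 6.88e-05). FOXO1, a known activator of PNPLA2, did not pass (0.07, adjusted p 0.496). PPARGC1A was at 0 counts and IRF4 had at most 8, and neither was tested.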

How the data were processed

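RNA-seq was analysed for 6 HCT116 libraries, 3 shGDPD5 and 3 shCtrl, grouped by their labels. A single table of estimated counts was deposited by the authors, with 79302 gene rows, 370 of which carry names made during processing. How reads were aligned and counted, on which genome build and with which strand setting, is not given in the sources used here. Overlapping or antisense genes are therefore uncertain.

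Estimated counts were rounded (change at most 0.5), filtered with filterByExpr of edgeR 4.0.16 (minimum count 10), which left 16755 genes (95.5% with a symbol), TMM-normalized and tested with the quasi-likelihood test in R 4.3.3, with no covariates and Benjamini-Hochberg adjustment over all tested genes. Totals of 16715447 to 18510670 counts limit precision for low genes. SDs and SEs include the spread between libraries, and the limit given for a count of 0 covers counting error only. The common biological coefficient of variation was 0.0555. Calls used an adjusted p under 0.05.

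Positions and lengths came from GENCODE v29 (GRCh38) and sequences from RefSeq (GRCh38.p14). The members and lists were chosen with earlier results of these data known, and some items are not reported here. Named were all members, GDPD5, FASN, genes overlapping a member's exons, up to 4 called genes per list (smallest adjusted p, groups not overlapping), and the 3 genes nearest PNPLA2. Results were recomputed with DESeq2 1.42.0, limma-voom (limma 3.58.1), upper quartile or RLE factors, a test per gene on log2(CPM + 1), 2 other filters, a replicate block, each library left out, the study's log2 threshold, BSCL2 summed with its read-through gene, and another length. The study's fold limits (over 1.5 or under 0.5) were added after the data were seen.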

Additional observations from a re-analysis of the deposited data

How the results depend on the processing

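With a log2 change of 1 or more and an unadjusted p under 0.05 from edgeR, the counts were 902 genes higher and 1105 lower, against 4971 and 5035, with 2 members higher and 1 lower. Of these 2, BSCL2 passed by its own row and stood at 0.84, below the limit, when summed with its read-through row. With a fold over 1.5 or under 0.5, added after seeing the data, 2273 genes were higher and 1105 lower, with 3 members higher (PNPLA2 added) and 1 lower. Over all genes, the test per gene on log2(CPM + 1) called 4127 higher and 4249 lower, fewer than edgeR did. It called 2 members higher, having lost PNPLA2 (0.58, adjusted p 0.0596) and PLIN3 (0.20, adjusted p 0.1). It also lost FASN (0.50, adjusted p 0.056). With each library left out in turn, 4410 to 5091 genes were higher and 4604 to 5266 lower, with 3 to 4 members higher and 2 lower. Of the members' calls at an adjusted p under 0.05, only that of PLIN3 was lost, without shGDPD5 1 (0.17, adjusted p 0.0721). PNPLA2 fell below the 1.5-fold limit without shGDPD5 1, without shGDPD5 3 and without shCtrl 1. ABHD5, which did not pass, turned to -0.035 without shCtrl 3 (adjusted p 0.727) in a range of -0.035 to 0.116. GDPD5 stayed between -0.99 and -0.75, PNPLA2 between 0.47 and 0.71, LIPE between 1.64 and 1.91, MGLL between -2.37 and -2.13, PLIN2 between -0.78 and -0.70, and BSCL2 between 1.29 and 1.45. Other factors, filters, DESeq2 and limma-voom changed no member's call. The cause of these changes was not tested. Levels per length moved beyond 1 SD for 11 of 18 values with the longest transcript.

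Replicate numbers did not pair the libraries: same-numbered libraries deviated with correlations of -0.07 to -0.04. With a replicate block 4792 genes were higher and 4853 lower, and no member's call changed (PNPLA2 0.60, adjusted p 0.00118).

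LIPE had 15 to 68 counts per library, which limits its precision. Whether depth or the counting set the listed 0 of G0S2 was not tested.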
